A study of Drosophila melanogaster with 3 samples.

Results

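The Hedgehog and Wnt pathways were examined through 10 genes: the ligand gene hh, the receptor genes ptc and smo, the transcription factor gene ci and its negative regulator rdx, and the Wnt genes wg, fz, arm, Axn and nkd. The rule that chose them was pathway membership, but they were proposed with earlier results of these data known. They are 10 of the 13945 protein-coding genes annotated on the 6 chromosome arms searched. Around each gene, every peak summit between 5 kb before and 5 kb after the annotated gene was taken, a stretch called its window below. The binding data were ChIP-seq of CG13894, a protein that carried GFP at its C-terminus and was immunoprecipitated with an antibody against GFP, in whole Drosophila melanogaster embryos collected from 2 to 24 h. All embryos came from 1 stable transgenic line, and there were 3 biological replicates of this 1 group. There was no second genotype, tissue or time to compare with, and the labels do not name the promoter that drives the fusion. Since the embryos were whole and of mixed age, strong binding in few cells and weaker binding in many cells cannot be told apart.

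Hedgehog is a secreted signal; it binds Patched, which otherwise holds the membrane protein Smoothened inactive, and active Smoothened lets full-length Cubitus interruptus switch on target genes. Wingless, the main fly Wnt, binds Frizzled receptors and stops a complex built on Axin from marking Armadillo, the fly beta-catenin, for destruction, so that Armadillo enters the nucleus. In the embryonic epidermis, neighbouring rows of cells in each segment make Hedgehog and Wingless and sustain each other's signal.

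CG13894 peaks lay in the windows of 8 of the 10 genes, with the most in the 3 longest windows, those of rdx, nkd and fz. The thresholded list, the peaks that passed an irreproducible discovery rate threshold, placed 52 of its 7434 summits there. They lay in 46 of its 7012 distinct regions (peaks that overlapped or touched were counted as 1 region). At hh, ptc, smo and ci, its summits had the same signals and ranks in the list called on the pooled replicates. A summit in the thresholded list need not lie in a peak of every replicate. The rdx window held 20 summits in 17 regions, nkd 9 summits in 9 regions and fz 8 summits in 8 regions. The ci window held 5 summits in 4 regions, ptc 4 in 3, smo 4 in 3, hh 1 and Axn 1. None was listed for wg or arm. Together rdx, nkd and fz carried 34 regions (73.9%) on 231 kb, which is 61.6% of the 375 kb searched.

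Most of these summits were not at promoters. A promoter summit was one within 500 bp of any annotated transcription start site. Of the 52 summits, 13 (25%) were promoter summits, against 43.6% of the whole thresholded list, and 34 (65.4%) were intronic, against 37.7% of the list. Another 3 (5.77%) were intergenic, against 15.2% of the list. The few remaining were 1 in the 5′ UTR of nkd and 1 in a non-coding transcript beside ci, with 0 in coding exons or 3′ UTRs. Of the 13 promoter summits, only 5 lay within 500 bp of a member's own start and 8 lay at promoters of neighbours alone. Among the 5, the ci summits and the one at the outermost rdx start were nearer to another gene's start. The promoter share differed between genes. In the 3 longest windows it was 4 of 20 summits at rdx, 0 of 8 at fz and 1 of 9 at nkd. Elsewhere it was 4 of 4 at smo, 3 of 5 at ci, 1 of 1 at Axn, 0 of 4 at ptc and 0 of 1 at hh. No share was computed for other genes with windows of like length, so the gap to the whole list may not be particular to these genes. The promoter share was 29.2%, 30% and 29.4% among the 7434 strongest peaks of replicates 1, 2 and 3 (29.5% ± 0.428, SD, n = 3), against 43.8%, 44.3% and 46.3% of all the strongest peaks of those replicates. It was thus lower in the member windows in each replicate. Among summits shared by the strongest peaks of all 3 replicates, the share was 41.4% of 29 in the windows and 47.3% of 4501 on all arms, a smaller gap.

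**Figure D1:**
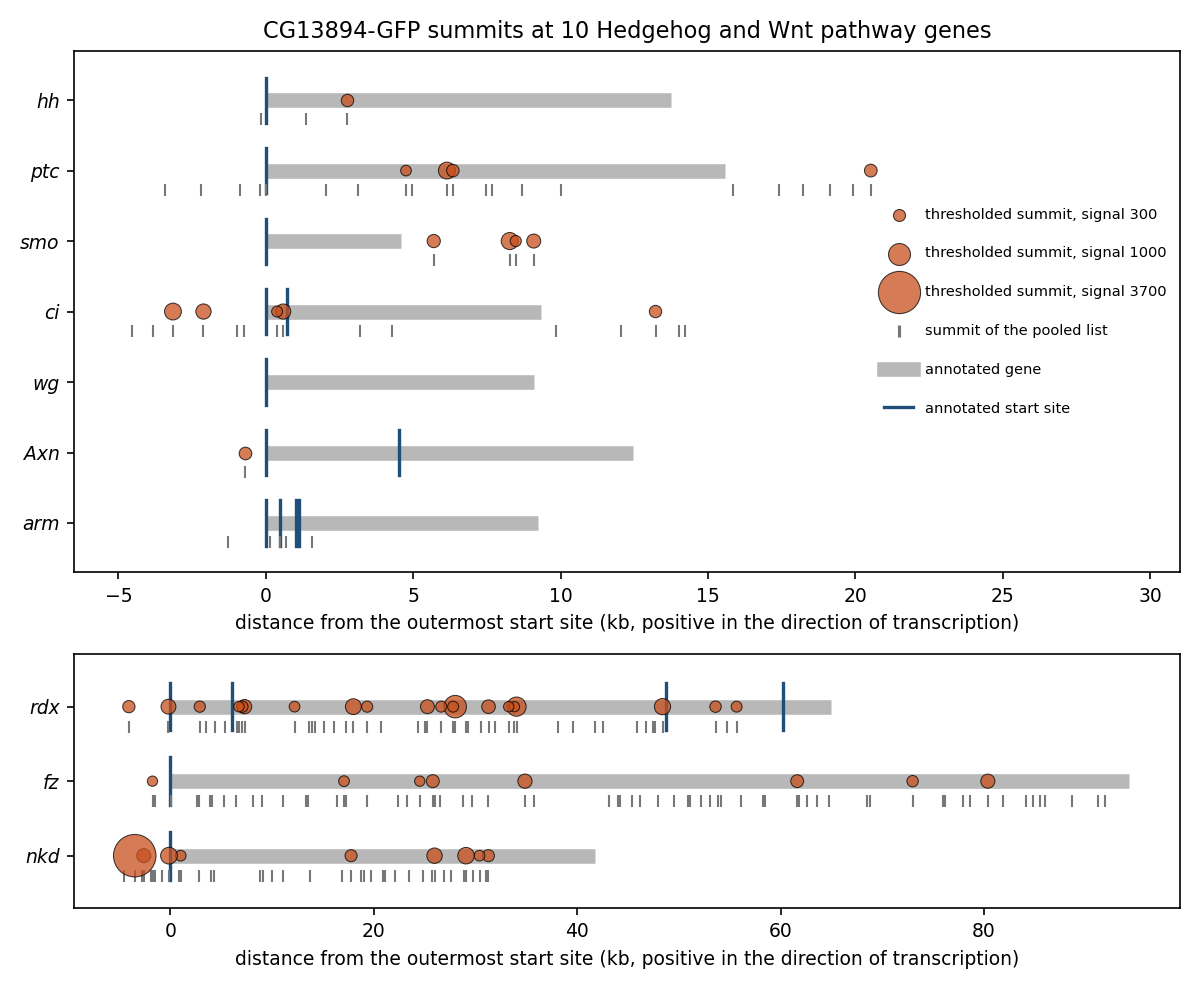
Position of every thresholded summit in each gene's window, in kb from the gene's outermost transcription start site along the direction of transcription; grey bars are the genes, blue lines their annotated start sites, circles the thresholded summits with area growing with signal, and short ticks the summits of the pooled list. The rdx, fz and nkd circles are spread along the genes, the largest lies upstream of nkd, wg and arm have no circle, and wg has no tick either.

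Window length has to be read beside these counts, because longer windows hold more peaks. A summit in the window was found for 8 of the 10 members, against 52.4% of all coding genes. Of the 4 members with windows under 20 kb, smo and ci had one and wg and arm did not, where 48.4% of coding genes of that length had one. All 3 members from 20 to 50 kb (hh, ptc and Axn) had one, against 74.1% of such genes, and so did all 3 over 50 kb (rdx, fz and nkd), against 85.2%. A summit inside the gene itself was listed for 6 of the 10 (hh, ptc, ci, rdx, fz and nkd), against 16.0% of coding genes, whose median window was 12.2 kb. The median over the member windows was 3 regions, and the median density, taken separately, was 0.968 regions per 10 kb. Over coding genes these medians were 1 region and 0.381 per 10 kb.

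**Figure D2:**
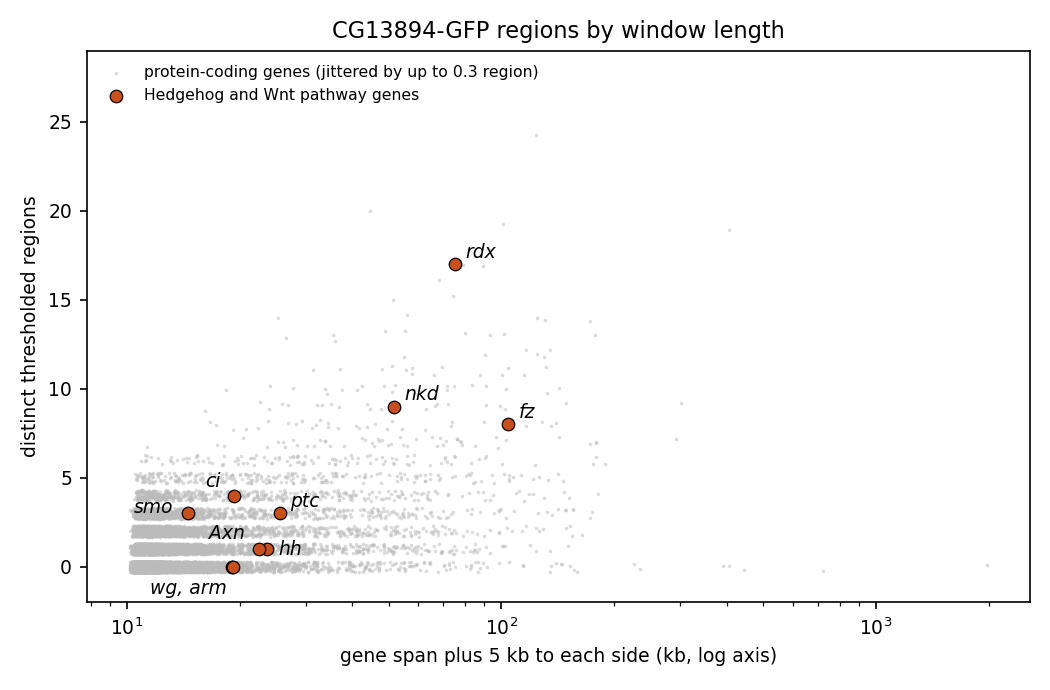
Distinct thresholded regions in each protein-coding gene's window (grey points, jittered by up to 0.3 region) against window length in kb on a log axis, with the 10 members in colour. The rdx window, at 17 regions, stands near the top for its length, while wg and arm are at 0.

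Among the 461 coding genes with windows over 50 kb, whose median was 3 regions, 1.3% had as many regions as rdx or more. For nkd that share was 12.6% and for fz 15.4%. In the class under 20 kb, where the median was 0, 4.1% of genes had as many regions as ci or more and 11.1% as many as smo. The share was 35.6% for ptc, with 3 regions against a median of 2 in its class, and 74.1% for hh and Axn, with 1 each. The replicates' own strongest peaks gave rdx 18, 15 and 15 regions, nkd 9, 12 and 6, and fz 6, 8 and 10. They gave ci 4 in each replicate, smo 5 in each, hh 1 and Axn 1 in each, and ptc 3, 1 and 6. For wg they gave 1, 1 and 0, and for arm 0 in each. The order of rdx above nkd, fz and the rest held in each replicate; nkd and fz changed places in replicate 3.

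Signal, the peak caller's score for a peak, was not high at most of these summits. Its median was 327 at the 52 summits and 338 over the list, and 2 of the 52 (3.85%) passed 1000, against 430 of the list (5.78%). Of the 52, 51 (98.1%, 95% Wilson interval 89.9 to 99.7%, which covers the counting of summits only) lay inside a peak of all 3 replicates, against 93.6% of the list. In all 3 replicates 30 of them (57.7%) were also among the 7434 strongest peaks, against 60.6% of the list. Another 12 were so in 2 replicates and 10 in 1. Where several peaks of a replicate held a member's summit, the peak with the nearest summit was used. For the list share any of them could count, a looser rule. Replicate signals are on scales of their own, so ranks within a replicate, with 1 as the strongest, are given below.

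**Figure D3:**
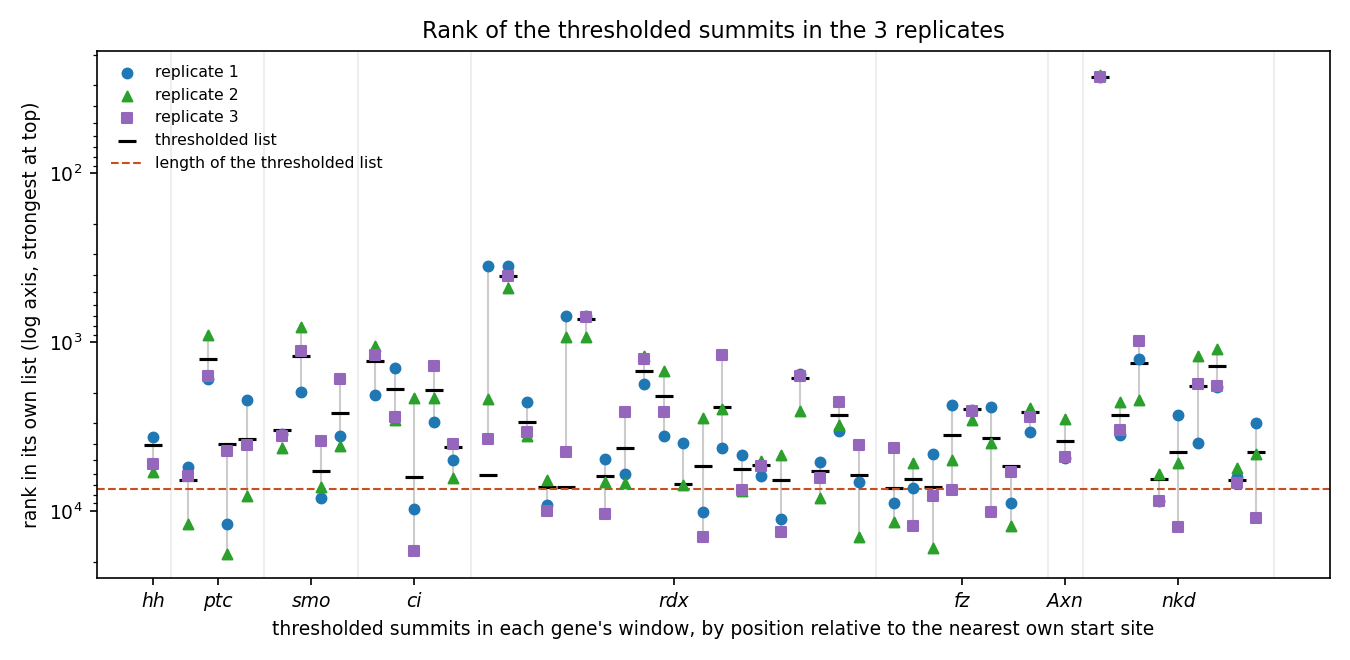
Rank of each of the 52 thresholded summits in the thresholded list and of the peak that contains it in replicates 1, 2 and 3, by gene, on a log axis with the strongest at the top; the dashed line is rank 7434, and summits that share a replicate peak share its rank. The summit upstream of nkd stands apart at rank 26 to 27 in every list, and the weaker summits spread more widely between replicates.

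The Hedgehog genes together held 28 regions on 158 kb. The ligand gene hh (FBgn0004644, chr3R:23128169-23141906, minus strand) had 1 thresholded summit, at chr3R:23139156 in the first of its 2 introns, 2750 bp downstream of its start. Its signal was 320 and its rank 4055, with ranks 3654, 5897 and 5272 in replicates 1, 2 and 3. All 3 replicates placed it among their strongest peaks, at mid-list ranks. The hh promoter itself appeared in the unthresholded lists only, at rank 10548 of the 30000 peaks called on the pooled replicates and at 12423, 9767 and 10266 in replicates 1 to 3.

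The receptor gene ptc, itself a well-known target of the pathway, had its summits in the first of 5 introns (FBgn0003892, chr2R:8649649-8665223, plus strand). The strongest, at chr2R:8655791, lay 6142 bp downstream of the start with signal 594 and rank 1257, and ranked 1641, 908 and 1583 in replicates 1 to 3. A second summit in the same region was less even, at rank 4013 in the list but 11959, 17900 and 4372 in the replicates. Another, at chr2R:8654403, ranked 6537 in the list and 5495, 11936 and 6177 in the replicates. Only the first of these was among the strongest peaks in all 3 replicates. The fourth summit in the ptc window lay in an intron of Acsl, a long-chain acyl-CoA synthetase gene, 53 bp inside the window's edge, and another, at rank 3281, fell 219 bp outside the opposite edge. No thresholded summit lay at the ptc promoter, which ranked 9970 in the pooled list and 13493, 7928 and 11863 in the replicates.

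For smo (FBgn0003444, chr2L:277582-282167, plus strand), which encodes the membrane protein that Patched restrains, the lists disagreed. The thresholded list had no summit in the gene or at its start: its 4 summits lay 5.7 to 9.1 kb downstream of the start, at promoters of CG11601 (rank 3320), CG3625 (ranks 1209 and 2616) and the antisense RNA gene asRNA:CR46263 (rank 5765). The pooled list held the same 4 summits and none closer. Each replicate, however, had a peak at the smo promoter, with summits 97, 85 and 235 bp upstream of the start and ranks of 5082, 5315 and 5962. In replicate 3 that summit was nearer, at 135 bp, to the start of the neighbouring CG17078, and a second, overlapping peak at rank 8437 had its summit 28 bp upstream of smo.

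The same held for 1 other site in the smo window, between the starts of mbm, which encodes a nucleolar protein, and CG11555. Its summit was nearest to mbm in replicates 1 and 2 and to CG11555 in replicate 3. The peak ranked 4754, 3872 and 3896 in replicates 1 to 3, ahead of the summit listed at asRNA:CR46263, which ranked 8298 and 7186 in replicates 1 and 2, and about level with it in replicate 3, where that summit ranked 3821. Over the 10 windows, 2 of the 29 replicate 1 summits that lay in a strongest peak of every replicate were in no pooled peak, both of them in the smo window. Over all arms this was 101 of 4501 (2.24%), of which 65 were at promoters. The reason was not tested, and the smo promoter is reported here as present in each replicate's list and missing from the pooled and thresholded lists.

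The transcription factor gene ci (FBgn0004859, chr4:47710-57041, minus strand), whose product is the pathway's nuclear effector, had summits at its promoter and upstream. One, at chr4:56453, lay 122 bp upstream of the inner of its 2 starts, within exon 1 of the gene model, and 44 bp from the start of asRNA:CR43957. It had signal 477 and rank 1915, with ranks 2979, 2126 and 1388 in the replicates. An overlapping peak had its summit at rank 6238, for which the replicates gave 9765, 2126 and 17231. In replicate 2 the peak at rank 2126 covered both summits, and an overlapping peak at rank 9342 covered the weaker one alone. Stronger than either was a summit 3150 bp upstream, at chr4:60191 (signal 588, rank 1285), ranked 2047, 1054 and 1190 in the replicates. A further one, 2115 bp upstream, ranked 1881 in the list and 1424, 2878 and 2764 in the replicates. The antisense gene and ci overlap, and a ChIP peak carries no strand, so these summits cannot be given to one of them. The remaining summit was at the promoter of PlexB, a plexin gene, at rank 4148. The 101 bases centred on the strongest ci summit, shown because it is the upstream site nearest the top of the list, read as follows on the plus strand of the Release 6 (dm6) reference, and held none of the 7 motifs described below, though the wider stretch of 200 bases used for the motif counts held CGATA.
ci upstream, chr4:60141-60241: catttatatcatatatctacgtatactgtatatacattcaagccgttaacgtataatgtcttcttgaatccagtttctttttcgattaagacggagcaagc

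The rdx gene (roadkill, FBgn0264493, chr3R:13967061-14032057, minus strand), a target of Hedgehog signalling that encodes the Cul3 adaptor through which Ci is degraded, carried the most summits of the 10. Of its 20 summits, 18 lay inside the gene and 17 of these in its second intron. The strongest, at chr3R:14004045, was 20.7 kb from the nearest rdx start, with signal 1045 and rank 405. Its signals in replicates 1, 2 and 3 were 453, 297 and 312, and its ranks 352, 475 and 402. The next, at chr3R:13998017, was 14.7 kb from a start, with signal 766 and rank 729, and ranked 700, 932 and 707. Both were thus within the first 1000 peaks of every list. Another intronic summit, at chr3R:14014058, ranked 1621 in the list and 1530, 2542 and 1579 in the replicates.

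Both promoter summits of rdx were weaker than the intronic summits at ranks 405 and 729. The summit 304 bp upstream of an inner start, at chr3R:13983667, had signal 545 and rank 1487, with 1765, 1202 and 1262 in the replicates. The one 177 bp upstream of the outermost start ranked 2073, with 3573, 1481 and 2594 in the replicates, and lay 137 bp from the start of CG3061, so it may belong to either gene. Of the other promoter summits, 1 was at Cyp6d5, a cytochrome P450 gene nested in the first rdx intron (rank 5588), and 1 at CG9922 (rank 4211). Only 12 of the 20 rdx summits were among the strongest of all 3 replicates, and 1, at rank 6925, was in no replicate 3 peak. The 3 leading intronic summits are shown with 101 bases each on the plus strand of the same reference. They were chosen since the first 2 had the highest signal in the gene and all 3 lie away from its promoters. Capitals mark GAGAG on either strand. The 200 bases around the rank 405 summit used for the motif counts below held CTTTGA, which is not in the bases shown.
rdx intron 2, rank 405, chr3R:14003995-14004095: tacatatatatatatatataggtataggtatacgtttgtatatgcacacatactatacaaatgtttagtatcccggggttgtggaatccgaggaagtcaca
rdx intron 2, rank 729, chr3R:13997967-13998067: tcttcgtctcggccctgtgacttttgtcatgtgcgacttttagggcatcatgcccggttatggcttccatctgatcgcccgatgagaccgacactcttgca
rdx intron 2, rank 1621, chr3R:14014008-14014108: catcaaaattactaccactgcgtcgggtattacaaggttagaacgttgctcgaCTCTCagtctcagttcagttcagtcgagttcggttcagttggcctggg

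The Wnt genes together held 18 regions on 217 kb. The ligand gene wg (FBgn0284084, chr2L:7307159-7316265, plus strand) had no thresholded and no pooled peak in its window, and the nearest thresholded summit lay 19090 bp from its start. Replicates 1 and 2 each had 1 peak there, both at the promoter, 193 and 147 bp upstream, at ranks 6133 and 5048; replicate 3 had none among its 30000 peaks. Both were among the strongest of their replicate, so wg differed from smo in resting on 2 replicates of 3. The sequence around the replicate 2 summit is printed because no other site was called near this gene; these 101 bases held none of the 7 motifs, and no wider stretch was searched.
wg promoter, chr2L:7306962-7307062: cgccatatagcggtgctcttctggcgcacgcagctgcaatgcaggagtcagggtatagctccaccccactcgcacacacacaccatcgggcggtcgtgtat

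The receptor gene fz (FBgn0001085, chr3L:14274343-14368639, plus strand), which also acts in planar polarity, had 7 summits in its introns and 1 lying 1745 bp upstream of its start (rank 7310). Of the 8, 6 were over 10 kb from every annotated start. The strongest was in the second of 4 introns at chr3L:14309210, 34.9 kb downstream of the fz start, with signal 420 and rank 2481. It ranked 2519, 2891 and 2563 in the replicates. The next, in intron 4 at chr3L:14354714, 80.4 kb downstream, ranked 2572 in the list and 3390, 2464 and 2775 in the replicates. These were the only fz summits among the strongest of all 3 replicates; the other 6 ranked from 3538 to 7310 in the list. The pooled list held 66 fz summits, of which the 8 (12.1%) were in the thresholded list. That share was 43.5% for rdx, 26% over the 10 windows and 24.8% over the whole pooled list. It does not measure how often peaks recurred between replicates. The leading fz summit is shown because its 101 bases held both GAGAG and CTTTGA, which overlap on the minus strand and are in capitals.
fz intron 2, chr3L:14309160-14309260: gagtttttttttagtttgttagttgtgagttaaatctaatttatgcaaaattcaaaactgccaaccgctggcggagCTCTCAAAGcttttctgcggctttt

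Among the 10 genes, Axn and arm had few peaks. Axn (FBgn0026597, chr3R:30022842-30035311, plus strand), the scaffold of the complex, had 1 summit, 705 bp upstream of its start at signal 331 and rank 3843, with 4841, 2840 and 4753 in the replicates. It lay 84 bp from the start of Mgat2, an N-glycan synthesis enzyme gene, and counted as the promoter of Mgat2. No list had a summit within 500 bp of an Axn start. For arm (FBgn0000117, chrX:1891401-1900646, minus strand) the nearest thresholded summit lay 19842 bp from its starts. Its promoter appeared at rank 15016 in the pooled list and at 10153, 14153 and 12621 in the replicates. No replicate had an arm peak among its strongest.

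The strongest summit of all 52 lay upstream of nkd (FBgn0002945, chr3L:19003741-19045449, minus strand), a gene induced by Wingless whose product binds Dishevelled and damps the signal. At chr3L:19048941 it had signal 3743 and rank 27 of 7434. It ranked 27, 26 and 27 in replicates 1, 2 and 3, with signals of 1498, 1166 and 1098. These were 10.3, 10.4 and 10.2 times the median of each replicate's strongest peaks, and in the list the signal was 11.1 times the median. The summit was intergenic, 3492 bp upstream of nkd and 3085 bp from the start of Acp76A, an accessory gland serpin gene, so nearness alone does not assign it to nkd.

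The other nkd summits were weaker. Its promoter, 125 bp upstream at chr3L:19045574, had signal 582 and rank 1318, and ranked 1260, 2183 and 984 in the replicates. A second intergenic summit, 2608 bp upstream, ranked 2682. The first intron held 5 summits, from 17.8 to 31.3 kb downstream, the strongest at chr3L:19016376 with rank 1372 (1847, 1095 and 1814 in the replicates). One in the 5′ UTR, at rank 6410, was among the strongest in 1 replicate only. The upstream site and the promoter are shown as the leading nkd sites, with GAGAG in capitals on either strand. The 200 bases around the upstream summit used for the motif counts below held CGATA, which is not in the bases shown.
nkd upstream, rank 27, chr3L:19048891-19048991: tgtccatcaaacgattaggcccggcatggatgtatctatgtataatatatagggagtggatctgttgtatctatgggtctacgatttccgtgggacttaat
nkd promoter, rank 1318, chr3L:19045524-19045624: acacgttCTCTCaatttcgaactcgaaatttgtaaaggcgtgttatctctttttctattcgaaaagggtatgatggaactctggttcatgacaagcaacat

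Taking promoters alone, 3 of the 10 genes (ci, rdx and nkd) had a thresholded summit at their own promoter, against 22.8% of coding genes. By window length this was 1 of 4 under 20 kb, against 19.2% of such genes, 0 of 3 from 20 to 50 kb, against 42.9%, and 2 of 3 over 50 kb, against 50.1%. These counts are small and lie on both sides of the background. In the pooled list 7 of the 10 had a promoter summit (hh, ptc, ci, rdx, fz, arm and nkd), against 38.5% of coding genes. The replicates' strongest peaks gave 5, 6 and 4 members (5 ± 1, SD, n = 3), against 23.3%, 23.3% and 25% of coding genes. The members gained there were smo in all 3, wg in replicates 1 and 2 and fz in replicate 2. The pooled and replicate shares of coding genes were not split by window length, with which the thresholded share rose.

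**Figure D4:**
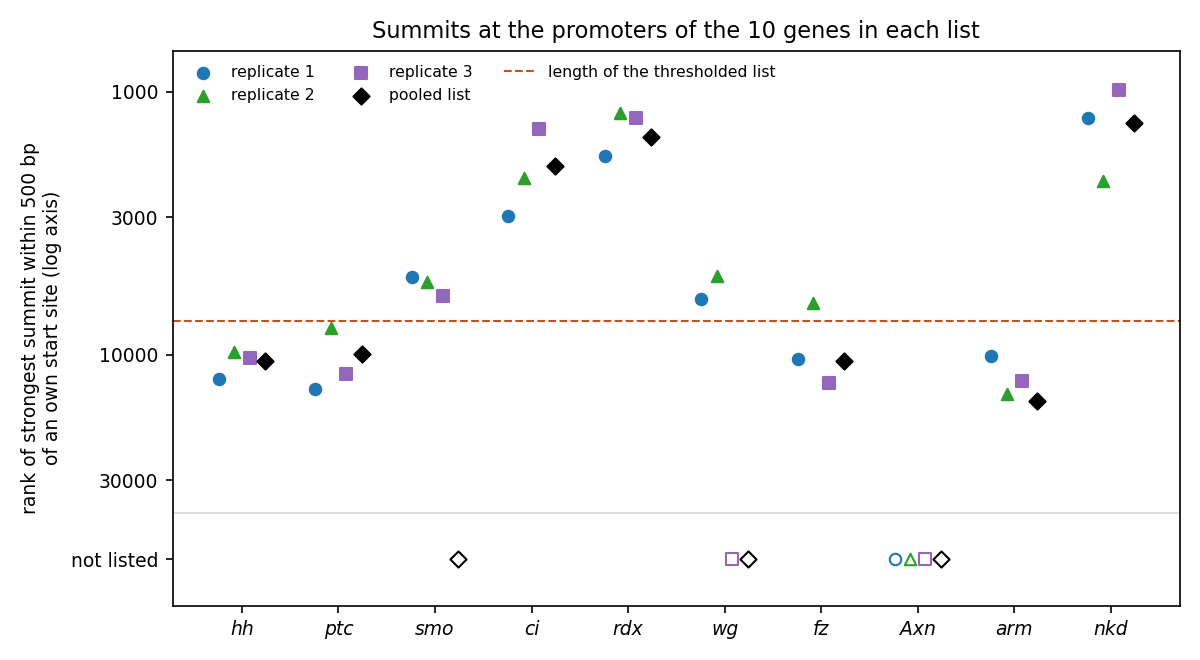
Rank of the strongest peak within 500 bp of each member's own start sites in replicates 1, 2 and 3 and in the pooled list, on a log axis with the strongest at the top; the dashed line is rank 7434, and open symbols mark lists with no such peak. The smo points of the replicates lie above the line while its pooled symbol is open, and Axn has open symbols only.

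Short motifs were counted in the 200 bases around each of the 52 summits, on both strands. GAGAG, the core of GAGA factor sites, was in 20 (38.5%), against 28.1% of all thresholded summits. CGATA, the core of BEAF-32 sites, was in 14 (26.9%), against 30.6%, and CTTTGA, part of the site of the Wnt effector TCF, in 6 (11.5%), against 10.5%. The DRE motif TATCGATA, which contains CGATA, was in 0, against 3.19%. GGTCACACT (M1BP) was in 0, against 1.51%, CAGGTAG (Zelda) in 0, against 0.794%, and GGGTGGTC, a form of the Ci site, in 0, against 0.336%. A count of 0 of 52 allows a share of up to 5.77%, above each of these list shares. The median G+C content was 42.2% at the members' summits and 43.5% over the list. These are matches of letters in a fixed stretch of reference and do not show which protein was bound.

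A wider list of 61 pathway genes, the 10 included, placed the members among their partners. A thresholded promoter summit was found for 23 of the 61 (37.7%), against 22.8% of coding genes. With the 10 members left out it was 20 of 51 (39.2%). By window length it was 7 of 32 (21.9%) under 20 kb, against 19.2% of such coding genes, and 8 of 18 (44.4%) from 20 to 50 kb, against 42.9%. Over 50 kb it was 8 of 11 (72.7%), against 50.1%. Below 50 kb the shares lay near those of other genes.

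Over all coding genes, 22.8% had a promoter summit and 52.4% a region in the window, shares that rise with window length as given above; the counts by role are small and are to be read against these. The Hedgehog receptors and co-receptors (ptc, smo, ihog and boi) had 0 of 4 with a promoter summit, though all 4 had a region in their window. The genes for modification and spread of the Hedgehog ligand had 4 of 8, led by sotv, a heparan sulphate polymerase gene (rank 591, with 553 and 676 in replicates 1 and 3 and no peak over the summit in replicate 2), and dlp, a glypican gene (rank 2581). Among the cytoplasmic relay genes 3 of 7 had one, led by the kinase genes sgg (rank 470) and CkIalpha (rank 1647). The summit counted for Gprk2, another of the 3, was nearest to the start of PNPase. The ubiquitin ligase genes had 1 of 4, which was rdx.

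On the Wnt side the ligands had 1 of 7: Wnt6, whose gene lies near wg, had a summit 118 bp downstream of its start at rank 483. The receptors had 3 of 9, led by arr, the LRP co-receptor gene (rank 1971), and fz3 (rank 5285). In the destruction complex 5 of 7 had one, led again by sgg and CkIalpha. Axn was 1 of the 2 without, slmb the other. The summit counted for Tnks, another of the 5, was nearest to the start of RASSF8 and ranked 7377. It ranked 8060, 8745 and 7471 in replicates 1 to 3, outside the strongest peaks of each. The Apc2 summit (rank 3593) had no peak over it in replicate 2. The relay genes had 2 of 3, with gish, a casein kinase gene, at rank 105, and dco at rank 4159. Genes for ligand modification had 3 of 6, led by Swim (rank 1730) and dlp. Of the nuclear effectors, pan, the fly TCF gene (rank 2252), and lgs (rank 6658) had one, and arm and pygo did not. The lgs summit ranked 7662, 9126 and 9169 in replicates 1 to 3, outside the strongest peaks of each. Core planar polarity genes had 1 of 6, stan (rank 2256).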

How the data were processed

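ChIP-seq against GFP was done on 3 biological replicates of whole embryos of 1 line, with chromatin sonicated to 200 to 800 bp, per the labels. The authors deposited narrowPeak lists on dm6: 30000 peaks per replicate, 30000 called on the pooled replicates, and 7434 that passed an irreproducible discovery rate threshold, per the labels and the file notes. The aligner, peak caller and threshold were not given in the sources used here, and the control library was not analysed here. The deposited signal score ranks peaks within a list only, and its scale differs between lists. The deposited −log10 q-value was read only to check the files. The deposited summit offset gave each summit; in 5 thresholded peaks it passed the peak's end and was set to the last base. Read counts are not part of these lists; depth is therefore unknown, and a site that a list leaves out may still be bound.

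Gene models were those of Ensembl release 115, and bases came from the RefSeq copy of Release 6, where 99.8% of annotated start codons read ATG. Positions are 1-based. A summit was classed as promoter within 500 bp of any start site, and otherwise by exon, intron or intergenic position. Overlapping or touching peaks made 1 region. A replicate's value was that of its peak over the thresholded summit. The strongest peaks of a replicate were its first 7434. The script was tested on simulated summits, and Python 3.11.15 with pandas 2.3.3 was used. The 10 genes, the wider list and the motifs were chosen with earlier results of these data known. Named from the wider list were up to 2 genes per role with the strongest promoter summits; neighbours were named where their start was nearest to a summit. No p-values were computed, since there is 1 group.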

Additional observations from a re-analysis of the deposited data

How the results depend on the processing

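Counts of members with a promoter summit (3) or a window summit (8) were within 1.5 times of these in every alternative except those given here. Promoter counts were 5 and 6 in the strongest peaks of replicates 1 and 2, and 7 in the pooled list. The promoter share of 25% became 21.2% within 200 bp, 30.8% within 1000 bp, 21.2% with 1 start site per gene, 10.8% in the genes alone, 19% with 2 kb and 29.7% with 10 kb on each side, 29.2% in the stronger 50% of the list (48.6% of all its summits), 15% in the pooled list (26.2% of all pooled summits), and 29.2%, 30% and 29.4% in the replicates. The 46 regions became 24 in the stronger 50% and 157 in the pooled list, where the wider list's 23 became 15 and 35. The 98.1% found in all replicates became 100% in the stronger 50%, 59.6% with 50% reciprocal overlap and 57.7% with strongest peaks only. To leave out each replicate in turn, thresholded summits were kept if they lay in a strongest peak of each other replicate. No list was called again without that replicate. This gave 29 to 36 regions and promoter shares of 26.3 to 34.4%, and the lowest region count, 29, was without replicate 1. Of all thresholded summits in the windows, 98.1 to 100% were found in a peak of each other replicate. Chosen after seeing the data, the strongest summits shared by all 3 replicates, with no pooled list, gave 29 regions and a promoter share of 41.4%, against 47.3% of all such summits. Without rdx there were 29 regions, a share of 28.1% and 100% found. The cause of these shifts was not tested. No paired analysis was possible because there is 1 group. Depth cannot be given, the lists are capped in length, and a summit near several starts cannot be assigned to 1 gene.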
